A study of Mus musculus with 8 samples.

Results

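Pyrimidine and purine synthesis was followed in mouse liver and liver tumors through 33 genes of the enzymes that build, interconvert and salvage nucleotides, and of the folate enzymes that feed them. The 33 genes were taken by symbol from the deposited table of 21878 genes, and each of the 33 was found and tested. They form 9 roles: 3 genes of pyrimidine ring synthesis, 5 of the CTP, UMP-CMP and nucleoside diphosphate steps, 6 of deoxynucleotide supply, 2 of uridine-cytidine salvage, 2 of phosphoribosyl pyrophosphate (PRPP) synthesis, 6 of purine ring synthesis to IMP, 3 from IMP to GMP, 2 from IMP to AMP and 4 of one-carbon supply. The series holds 8 RNA libraries from livers of C57BL/6 mice, for which the labels give an age of 14 to 16 days in tumor and normal liver alike. Wild-type mice gave 3 tumors, numbered 1, 2 and 3, and 2 normal livers, numbered 2 and 3. Mice labelled nfib-/-, which the design text describes as Nfibf/f Alb-Cre, gave tumors 2 and 3 and normal liver 3. Nfib belongs to the nuclear factor I genes, which encode DNA-binding regulators of transcription, and the study asked how its loss from hepatocytes bears on liver tumors. The albumin promoter drives Cre in hepatocytes, so that the other cells of such a liver keep the gene. The labels do not say whether tumor and normal liver of equal number came from 1 animal, or whether the libraries of a group came from separate animals. P-values therefore measure the spread between these libraries only.

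Cells make pyrimidines by building a ring, joining it to ribose phosphate as UMP, and turning UMP into CTP and the deoxynucleotides. Purines are instead built step by step on PRPP as far as IMP, from which separate branches lead to AMP and GMP. Salvage enzymes return free nucleosides and bases to the pools at less cost. Folate-bound one-carbon units supply atoms of the purine ring and the methyl group of thymidylate. In the liver, carbamoyl phosphate is also made in mitochondria for urea, apart from the cytosolic supply that enters pyrimidine synthesis. Growing tissue and tumors are known for high flux through these routes, and the genes are often read beside Myc and Atf4, which are known to act on several of them.

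Total counts ran from 11912549 to 19965842 per library, and the 33 genes took between 0.131% and 0.170% of them. Levels below are CPM, the counts of a gene relative to the library total, with totals scaled by TMM factors, which ran from 0.901 to 1.18, and values within a group are listed in the order of library number. Nfib was not lower in the libraries labelled knockout: it gave 64.8, 46.1 and 77.9 CPM in the wild-type tumors, 87.6 and 79.4 in the wild-type normal livers, 84.1 and 82.03 in the knockout-labelled tumors and 85.4 in the knockout-labelled normal liver. These counts are per gene and do not show a deleted exon by itself. The genotype names are those of the labels throughout, and directions between genotypes are directions between labels. All 8 hepatocyte markers were present. They summed to 64403 CPM in wild-type normal liver 2 and to between 104740 and 184507 CPM in the other 7 libraries. The erythroid markers, of which 6 of 8 were measured, summed to 742 CPM in wild-type normal liver 2 and to at most 248 CPM elsewhere. This normal liver also had the largest TMM factor, 1.18, and the part of blood cells in the levels of the members was not tested. Wild-type tumors 1 and 2 had high Afp, the fetal liver protein of many liver tumors, at 573 and 2345 CPM, while the other 6 libraries lay between 1.11 and 17.5 CPM. The oncofetal markers, of which 3 of 4 were measured, summed to 1028 and 8114 CPM in wild-type tumors 1 and 2. Their sum was 256 CPM in knockout-labelled tumor 3 and between 8.14 and 78.9 CPM in the remaining libraries. Knockout-labelled tumor 2 and the knockout-labelled normal liver held skeletal muscle transcripts, and knockout-labelled tumor 3 and the normal liver neutrophil transcripts, at levels given beside the genes they move with. All 3 squamous epithelium markers, Krt4, Krt13 and Krt15, were high in knockout-labelled tumor 2, at a summed 393 CPM against at most 0.43 CPM in the other 7 libraries, and their tissue's part in the levels of the members was not tested. In such tissue RNA, fewer cells of a type and less RNA per cell cannot be told apart.

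The promoters of the isozyme pairs of the branches from IMP are shown. Adssl1, Adss and Impdh1 are among the genes whose libraries did not overlap between the genotype labels, and the factor they name binds DNA. Each line gives the 250 bases before the start of the gene in RefSeq on GRCm38.p6, 5′ to 3′ on the strand of the gene, and capitals mark the nuclear factor I half-site TTGGC on either strand and the E-box CACGTG, to which Myc binds. The windows are chr1:177796510-177796759 (minus strand) for Adss, chr12:112619797-112620046 (plus strand) for Adssl1, chr6:29216365-29216614 (minus strand) for Impdh1, which has a further start, and chr9:108560186-108560435 (plus strand) for Impdh2.
Adss: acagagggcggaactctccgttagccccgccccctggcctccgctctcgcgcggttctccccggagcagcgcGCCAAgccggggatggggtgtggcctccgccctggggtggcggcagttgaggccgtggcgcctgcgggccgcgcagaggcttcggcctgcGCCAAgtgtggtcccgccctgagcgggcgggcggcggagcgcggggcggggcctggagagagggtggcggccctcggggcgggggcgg
Adssl1: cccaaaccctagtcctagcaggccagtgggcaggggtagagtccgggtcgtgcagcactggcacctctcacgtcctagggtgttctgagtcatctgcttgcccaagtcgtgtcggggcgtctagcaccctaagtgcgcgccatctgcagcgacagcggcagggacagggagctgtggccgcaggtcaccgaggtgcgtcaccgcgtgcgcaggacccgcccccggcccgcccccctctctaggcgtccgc
Impdh1: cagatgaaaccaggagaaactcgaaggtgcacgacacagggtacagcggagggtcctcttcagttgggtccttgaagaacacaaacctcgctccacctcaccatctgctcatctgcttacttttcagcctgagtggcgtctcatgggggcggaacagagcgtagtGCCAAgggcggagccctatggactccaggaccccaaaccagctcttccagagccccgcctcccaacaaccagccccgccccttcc
Impdh2: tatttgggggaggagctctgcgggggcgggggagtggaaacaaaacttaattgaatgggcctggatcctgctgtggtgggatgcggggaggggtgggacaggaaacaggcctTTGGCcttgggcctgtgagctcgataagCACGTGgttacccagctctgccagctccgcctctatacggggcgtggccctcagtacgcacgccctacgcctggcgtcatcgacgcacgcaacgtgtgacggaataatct
Adss held 2 half-sites and Adssl1 none, while Impdh1 and Impdh2 held 1 each and Impdh2 also 1 E-box. RefSeq gave windows for 31 of the 33 genes, 40 in all. The half-site, which overlaps the CCAAT box wherever A precedes it, was in 13 of the 31 genes (41.9%), against 45.3% of 27025 genes with such windows. The E-box was in 6 genes (19.4%), namely Nme1, Tyms, Dtymk, Paics, Atic and Impdh2, against 6.86% of all genes. Of the other motifs searched, the CCAAT box was in 11 genes (35.5%, against 37.5% of all genes). An E2F site was in 1, Ppat (3.23%, against 1.03%). A second form of the E2F site and the ATF4 element were in 0 of the 31, against 0.485% and 0.918% of all genes. The full palindrome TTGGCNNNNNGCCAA was in none of the 31. A match is a description of letters and not a site of binding.

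Per length, in the authors' FPKM, the highest of the 33 was Nme2, a nucleoside diphosphate kinase, at 154 to 277 FPKM over the 8 libraries. It was followed by Shmt2 (54.9 to 131), the mitochondrial serine hydroxymethyltransferase, Paics (23.4 to 97.4) and Mthfd1 (26.9 to 81.8). Cad, which opens pyrimidine synthesis, stood at 1.399 to 3.27 FPKM, Tyms, the thymidylate synthase, at 1.29 to 1.75, and Pfas, a purine ring enzyme, at 1.39 to 2.34. Dctd, the deoxycytidylate deaminase, was the lowest, with 4 to 12 counts per library, and its values carry little information. On this scale the 6 purine ring genes summed to between 64.0 and 132 FPKM per library and the 3 pyrimidine ring genes to between 13.1 and 16.9 FPKM. Paics alone made up between 36.6% and 73.8% of the purine sum. Single genes did not follow the order of the sums: Umps stood at 7.75 to 11.4 FPKM, Ppat at 4.04 to 7.99 FPKM and Adsl at 4.62 to 7.53 FPKM. The uridine-cytidine kinases Uck1 and Uck2, which salvage pyrimidine nucleosides, summed to between 13.6 and 32.5 FPKM. Their sum exceeded that of the pyrimidine ring genes in the 5 wild-type libraries and in knockout-labelled tumor 2, and was below it in knockout-labelled tumor 3 and normal liver 3.

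The 33 genes did not move as a block between libraries. Wild-type tumor 2 was the highest of the 8 libraries for 17 genes and the lowest for 7, and 10 genes lay more than 1 log2 unit from their own mean there. Wild-type tumor 1 had 2 such genes, knockout-labelled tumor 2 had 1 and the knockout-labelled normal liver 2, and the other 4 libraries had none. The same counts over all genes are not given here, so these counts do not set the members apart from other genes. The median deviation of the 33 genes was 0.33 on the log2 scale in wild-type tumor 2 and between -0.16 and 0.08 in the other 7 libraries.

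**Figure D1:**
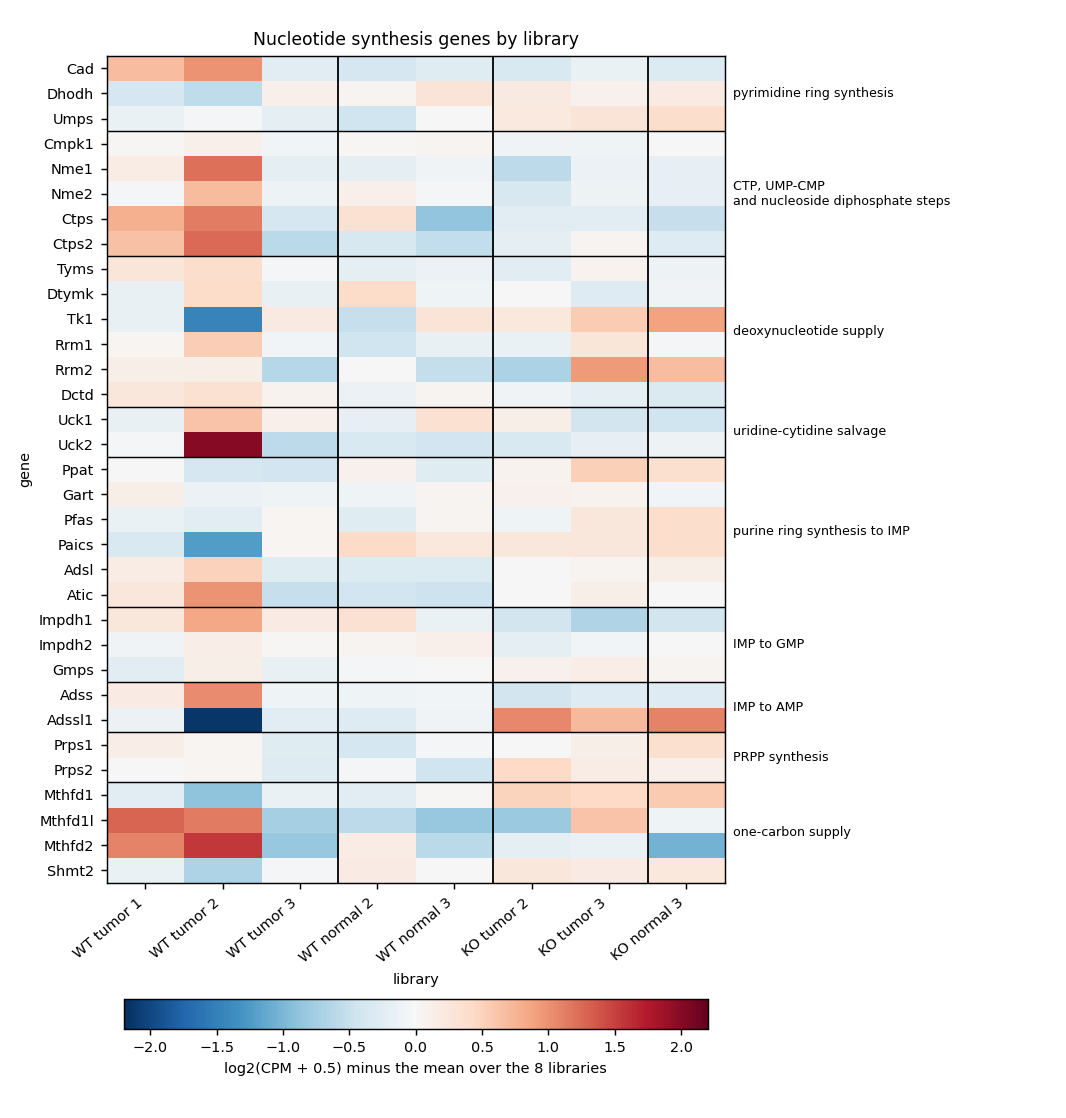
Deviation of each gene from its own mean over the 8 libraries, as log2(CPM + 0.5), with genes in rows by role and libraries in columns by group. Wild-type tumor 2 holds the strongest colours, in both directions, from Uck2 to Adssl1.

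In the libraries labelled knockout, Adssl1, Mthfd1, Umps and Prps2 stood higher than in every wild-type library, as 3.47% of all genes did. Impdh1, Adss and Nme2 stood lower, as 2.76% of all genes did. Prps2 overlapped with library totals alone, and Nme2 was apart only by 205 against 206 CPM. The genes named lie at the AMP branch, folate supply, the end of pyrimidine ring synthesis, PRPP supply, the GMP branch and phosphate transfer. Among the wild-type tumors, tumors 1 and 2 had high Cad, Ctps, Ctps2, Atic, Adsl, Mthfd2 and Mthfd1l, and wild-type tumor 3 resembled the normal livers at these genes. Without wild-type tumors 1 and 2, a choice made after seeing the data, the log2 fold changes between genotype labels were 1.21 for Adssl1, 0.64 for Mthfd1, 0.53 for Umps, 0.47 for Prps2, -0.66 for Impdh1, -0.23 for Adss and -0.17 for Nme2. Without the 2 muscle-rich libraries, likewise chosen after seeing the data, they were 1.31, 0.81, 0.41, 0.23, -1.21, -0.76 and -0.35 in the same order. These last values rest on knockout-labelled tumor 3 as the only library of its label, which also held neutrophil transcripts.

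No member passed an adjusted p of 0.05 in edgeR's quasi-likelihood test in any of 5 comparisons. The background was the same: 0% of 14726 genes passed between labelled knockout and wild type over both tissues, 0% between knockout-labelled and wild-type tumors, 0% between wild-type tumor and normal liver, 0% between tumor and normal over both genotypes, and 0% for the difference between the tumor effects of the genotypes. DESeq2 called 45, 4, 13, 5 and 0 genes in these comparisons, and none was a member. The smallest adjusted p among the members was 0.705, 0.888, 0.845, 0.922 and 0.9999 in the same order. The comparisons share libraries, so their results are not independent of each other.

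At an unadjusted p of 0.05, 6 members passed between labelled knockout and wild type, where 6.85% of all genes did. Of these Umps, Prps2, Ppat, Adssl1 and Mthfd1 had higher fitted levels in the libraries labelled knockout and Impdh1 a lower one. Between knockout-labelled and wild-type tumors 4 members passed, against 2.92% of all genes: Ppat, Adssl1 and Mthfd1 were fitted higher and Impdh1 lower. Between wild-type tumor and normal liver 1 member passed, Cad, against 2.32% of all genes. None passed between tumor and normal over both genotypes, where 1.76% of all genes did, and none for the difference of the tumor effects, where 0.319% did.

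Counted by libraries alone, without a model, the 3 knockout-labelled libraries lay wholly above the 5 wild-type libraries for 4 members, Umps, Prps2, Adssl1 and Mthfd1, where 3.47% of all genes did. They lay wholly below for 3 members, Nme2, Impdh1 and Adss, where 2.76% of all genes did. With library totals alone, without TMM factors, 4 members lay above (2.76% of all genes), with Tk1 in place of Prps2, and 5 below (3%), with Nme1 and Dctd added. In the tumors alone, 8 members lay wholly above (9.76% of all genes) and 5 wholly below (7.56%). The higher ones were Umps, Tk1, Ppat, Paics, Adssl1, Prps2, Mthfd1 and Shmt2, and the lower ones Cmpk1, Nme2, Dctd, Impdh1 and Adss. With library totals alone 9 lay above (9.65% of all genes), with Gmps added, and 7 below (7.46%), with Cad, Nme1 and Tyms added and Cmpk1 overlapping. The fitted levels of the 33 members split into 16 higher and 17 lower between labelled knockout and wild type, with a median log2 fold change of -0.03, against -0.02 over all genes.

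**Figure D2:**
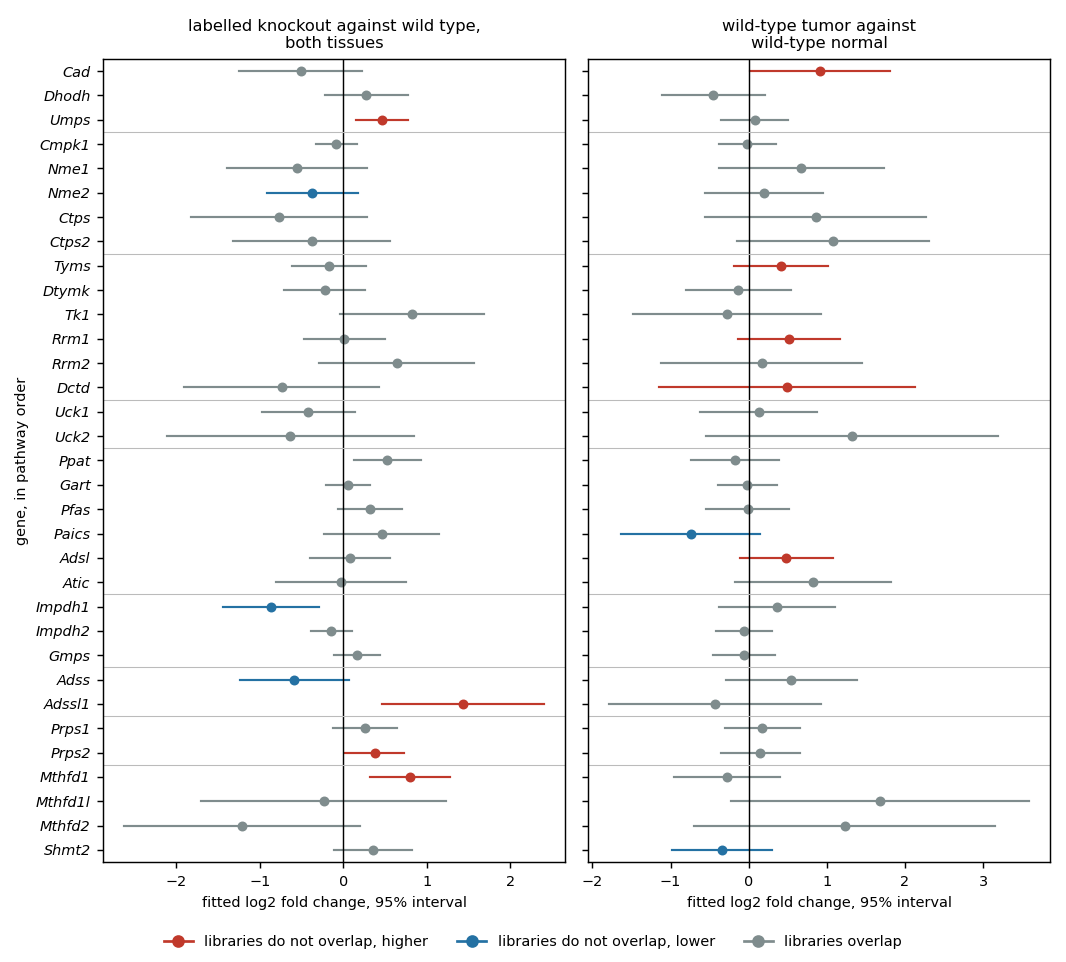
Fitted log2 fold change (edgeR) of each member with its 95% interval, for labelled knockout against wild type over both tissues (left) and wild-type tumor against wild-type normal liver (right). Colour marks members whose libraries did not overlap, and the intervals of Umps, Ppat, Impdh1, Adssl1, Prps2 and Mthfd1 on the left and of Cad on the right leave out 0.

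The pyrimidine ring genes differed in pattern from each other. Umps, whose enzyme makes UMP from orotate, gave 28.2, 30.4 and 26.99 CPM in the wild-type tumors, 22.97 and 31.1 in the wild-type normal livers, 36.4 and 38.2 in the knockout-labelled tumors and 41.1 in the knockout-labelled normal liver. All 3 knockout-labelled libraries lay above all 5 wild-type libraries. The mean was 38.5 ± 2.37 CPM (SD, n = 3) in the libraries labelled knockout and 27.9 ± 3.23 (SD, n = 5) in wild type, and the fitted log2 fold change was 0.46 ± 0.13 (SE; unadjusted p = 0.00895, adjusted p = 0.705, edgeR). It ranged from 0.37 to 0.51 when each library was left out in turn. Dhodh, the mitochondrial enzyme that makes orotate, gave 6.301, 5.45 and 8.995 CPM in the wild-type tumors, 8.72 and 10.2 in the wild-type normal livers, 9.65 and 8.898 in the knockout-labelled tumors and 9.42 in the knockout-labelled normal liver. It was lowest in wild-type tumors 1 and 2 and between 8.72 and 10.2 CPM elsewhere, and its log2 fold change between genotype labels was 0.27 ± 0.21 (SE).

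Cad, which joins the first enzymes of the pyrimidine ring in 1 protein, gave 21.4, 26.4 and 10.9 CPM in the wild-type tumors, 10.1 and 10.8 in the wild-type normal livers, 10.3 and 11.8 in the knockout-labelled tumors and 10.6 in the knockout-labelled normal liver. Wild-type tumors 1 and 2 were the 2 highest libraries, while wild-type tumor 3 was close to the 2 normal livers and to the libraries labelled knockout. The wild-type tumors lay above the wild-type normal livers, by a log2 fold change of 0.91 ± 0.37 (SE; unadjusted p = 0.0476, adjusted p = 0.845, edgeR). It was 0.09 without wild-type tumors 1 and 2.

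Cps1, the mitochondrial enzyme that makes carbamoyl phosphate for urea, is no member but is the liver's other source of that compound. It gave 1735, 1833 and 2501 CPM in the wild-type tumors, 3004 and 2502 in the wild-type normal livers, 3736 and 5663 in the knockout-labelled tumors and 6189 in the knockout-labelled normal liver. The libraries labelled knockout lay above the wild-type libraries, by a log2 fold change of 1.199 ± 0.26 (SE; unadjusted p = 0.00214, adjusted p = 0.705, edgeR). DESeq2 called it, with an adjusted p of 0.000162. In FPKM, the share of Cad in the sum of Cad and Cps1 was 0.936%, 1.09% and 0.334% for the wild-type tumors and 0.257% and 0.329% for the wild-type normal livers. It made up 0.210%, 0.160% and 0.131% in knockout-labelled tumors 2 and 3 and normal liver 3, below every wild-type library.

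The steps from UMP onward were fitted lower in the libraries labelled knockout for 5 of 5 genes and, in the tumors of the wild type against its normal livers, higher for 4 of 5. The median log2 fold changes were -0.38 and 0.67, against -0.02 and 0.00 over all genes. Without wild-type tumors 1 and 2, 4 of the 5 genes were fitted lower in the libraries labelled knockout, with a median of -0.08, and 5 of 5 were fitted lower in wild-type tumor 3 than in the wild-type normal livers, with a median of -0.12. The 2 CTP synthetases, which aminate UTP, were both fitted higher in wild-type tumor. Ctps2 gave 30.5, 46.8 and 12.6 CPM in the wild-type tumors, 15.1 and 13.2 in the wild-type normal livers, 16.9 and 20.2 in the knockout-labelled tumors and 15.8 in the knockout-labelled normal liver. Ctps, at a lower level, gave 9.18, 11.8 and 3.86 CPM in the wild-type tumors, 6.59 and 2.58 in the wild-type normal livers, 4.22 and 4.21 in the knockout-labelled tumors and 3.45 in the knockout-labelled normal liver. Both were high in wild-type tumors 1 and 2 and not in wild-type tumor 3. For both genes the libraries overlapped between genotype labels, between the tumors of the labels and between wild-type tumor and normal liver. The knockout-labelled tumors lay above the wild-type normal livers for Ctps2. The log2 fold change between wild-type tumor and normal liver was 1.08 ± 0.51 (SE) for Ctps2 and 0.86 ± 0.59 (SE) for Ctps.

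The nucleoside diphosphate kinases, which pass phosphate from ATP to the other nucleotides, had 1 library far from the rest. Nme1 gave 68.5, 143 and 52.8 CPM in the wild-type tumors, 52.8 and 57.7 in the wild-type normal livers, 40.9 and 56.1 in the knockout-labelled tumors and 53.8 in the knockout-labelled normal liver. Wild-type tumor 2 was far above wild-type tumor 1, and the other 6 libraries lay within 40.9 to 57.7 CPM. Nme2 gave 217, 359 and 206 CPM in the wild-type tumors, 239 and 215 in the wild-type normal livers, 172 and 205 in the knockout-labelled tumors and 195 in the knockout-labelled normal liver. Its knockout-labelled libraries lay just below all wild-type libraries, at 205 CPM for the highest of them and 206 for the lowest wild-type library, and the log2 fold change was -0.37 ± 0.23 (SE). Nme1 and Nme2 are neighbours joined by a read-through transcript in the annotation, so that reads may be split between them in a way the sources used here do not describe. Cmpk1, the UMP-CMP kinase, was nearly level, at 69.7 to 80.03 CPM.

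The genes of deoxynucleotide supply split into 3 fitted higher and 3 lower between genotype labels, and into 4 higher and 2 lower between wild-type tumor and normal liver. Tk1, the thymidine kinase of salvage, gave 19.9, 7.79 and 25.6 CPM in the wild-type tumors, 15.5 and 27.4 in the wild-type normal livers, 26.5 and 33.03 in the knockout-labelled tumors and 41.6 in the knockout-labelled normal liver. It was lowest in wild-type tumor 2 and highest in the knockout-labelled normal liver, and its log2 fold change between genotype labels was 0.82 ± 0.37 (SE; unadjusted p = 0.0585, adjusted p = 0.714, edgeR). Tyms, its de novo counterpart, gave 9.48, 10.3 and 7.49 CPM in the wild-type tumors, 6.59 and 7.02 in the wild-type normal livers, 6.52 and 8.23 in the knockout-labelled tumors and 7.15 in the knockout-labelled normal liver. The wild-type tumors lay above the wild-type normal livers for Tyms by a log2 fold change of 0.42 ± 0.25 (SE), an interval of -0.19 to 1.02 that includes 0.

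Ribonucleotide reductase reduces ribonucleotides of both bases, and its subunits followed different libraries. Rrm1, the large subunit, gave 12.1, 17.1 and 11.2 CPM in the wild-type tumors, 8.51 and 10.3 in the wild-type normal livers, 10.4 and 14.1 in the knockout-labelled tumors and 11.3 in the knockout-labelled normal liver. Rrm2, the small subunit that is made as cells enter S phase, gave 10.3, 10.3 and 5.92 CPM in the wild-type tumors, 9.36 and 6.44 in the wild-type normal livers, 5.65 and 18.6 in the knockout-labelled tumors and 15.4 in the knockout-labelled normal liver. Rrm1 was highest in wild-type tumor 2, while Rrm2 was highest in knockout-labelled tumor 3 and normal liver 3. All 8 neutrophil markers were fitted higher in the libraries labelled knockout, and their sum was 294 and 264 CPM in those same libraries, 18.9 CPM in knockout-labelled tumor 2 and between 29.9 and 46.7 CPM in the wild-type libraries. None of the 8 was at 0 there, and their part in the Rrm2 level was not tested. The 16 proliferation markers summed to 132 and 107 CPM in these libraries, against 163 and 233 CPM in wild-type tumors 1 and 2. They summed to between 105 and 124 CPM in the other 4. Dtymk, the thymidylate kinase, ranged from 10.4 to 17.1 CPM, with wild-type tumor 2 and normal liver 2 highest. Dctd stayed at 0.246 to 0.667 CPM.

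Uridine and cytidine kinase was where wild-type tumor 2 stood furthest above the rest. Uck2 gave 15.1, 63.9 and 10.3 CPM in the wild-type tumors, 12.3 and 11.5 in the wild-type normal livers, 12.3 and 13.8 in the knockout-labelled tumors and 14.4 in the knockout-labelled normal liver. The 7 libraries other than wild-type tumor 2 lay between 10.3 and 15.1 CPM. The log2 fold change between wild-type tumor and normal liver was 1.32 ± 0.78 (SE) with this library and 0.12 without it. In the authors' deposited table that sets wild-type tumor 2 against wild-type normal liver 2, Uck2 was the only member among 1001 listed genes, with a log2 value of 2.39, p = 0.00978 and an adjusted p of 0.328 as the authors' values. The authors' deposited tables for knockout-labelled tumor 3 against normal liver 3 (317 genes) and wild-type tumor 3 against normal liver 3 (270 genes) listed 0 members. Uck1, the more abundant kinase in FPKM (10.995 to 21.8 against 2.01 to 10.7 for Uck2), gave 30.003, 52.002 and 36.3 CPM in the wild-type tumors, 29.6 and 42.7 in the wild-type normal livers, 36.9 and 25.2 in the knockout-labelled tumors and 24.6 in the knockout-labelled normal liver. Wild-type tumor 2 was the highest here too, and knockout-labelled tumor 3 and normal liver 3 were the lowest.

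PRPP, the ribose phosphate donor of both ring pathways and of base salvage, is made by Prps1 and Prps2. Prps2 gave 17.2, 17.7 and 14.01 CPM in the wild-type tumors, 16.8 and 12.6 in the wild-type normal livers, 23.4 and 19.3 in the knockout-labelled tumors and 18.7 in the knockout-labelled normal liver. Its knockout-labelled libraries lay above all wild-type libraries, by a log2 fold change of 0.38 ± 0.15 (SE; unadjusted p = 0.0402, adjusted p = 0.714, edgeR). Prps1 gave 26.6, 24.6 and 19.9 CPM in the wild-type tumors, 18.3 and 23.7 in the wild-type normal livers, 24.1 and 26.3 in the knockout-labelled tumors and 30.7 in the knockout-labelled normal liver, and the labels overlapped. Prps1 stood above Prps2 in FPKM in every library, and Prps2 made up between 19.6% and 30.9% of their sum.

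**Figure D3:**
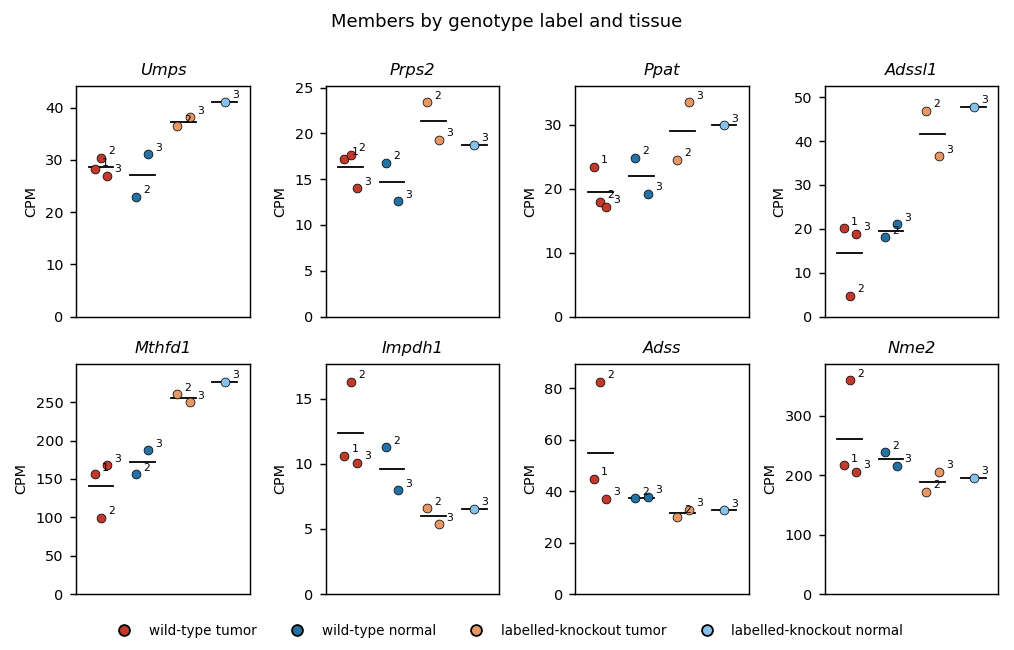
CPM of 8 members in each library (points, numbered by library; the bar is the group mean), by genotype label and tissue. For Umps, Prps2, Adssl1 and Mthfd1 the 3 knockout-labelled libraries lie above all 5 wild-type libraries, for Impdh1, Adss and Nme2 below them, and for Ppat the labels overlap.

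Purine ring synthesis to IMP held genes of opposite pattern. Ppat, the first committed enzyme, gave 23.4, 17.96 and 17.1 CPM in the wild-type tumors, 24.9 and 19.2 in the wild-type normal livers, 24.6 and 33.5 in the knockout-labelled tumors and 29.9 in the knockout-labelled normal liver. Its log2 fold change was 0.53 ± 0.17 (SE; unadjusted p = 0.0168, adjusted p = 0.705, edgeR) between genotype labels and 0.57 ± 0.23 between the tumors, where it was 0.31 without knockout-labelled tumor 3. Wild-type normal liver 2 lay above knockout-labelled tumor 2, so the labels overlapped. Paics, whose enzyme works at the middle of the ring pathway, gave 125, 66.4 and 161 CPM in the wild-type tumors, 209.9 and 183 in the wild-type normal livers, 187 and 187 in the knockout-labelled tumors and 205 in the knockout-labelled normal liver. The wild-type tumors lay below the wild-type normal livers and below the knockout-labelled tumors, with log2 fold changes of -0.74 ± 0.37 and 0.67 ± 0.37 (SE). Without wild-type tumor 2 these were -0.44 and 0.36. Ppat and Paics start 276 bases apart on opposite strands in RefSeq, and whether the counting used strand is not given in the sources used here, so reads at their starts may be shared.

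The enzymes of the last ring steps were higher in wild-type tumors 1 and 2, where Paics was low. Atic, which closes the ring to IMP, gave 34.7, 58.2 and 20.4 CPM in the wild-type tumors, 21.6 and 20.95 in the wild-type normal livers, 28.8 and 31.8 in the knockout-labelled tumors and 29.3 in the knockout-labelled normal liver. Adsl, which acts both before that step and again toward AMP, gave 24.2, 31.03 and 17.8 CPM in the wild-type tumors, 17.4 and 17.5 in the wild-type normal livers, 21.7 and 22.5 in the knockout-labelled tumors and 23.8 in the knockout-labelled normal liver. Wild-type tumors 1 and 2 were above the normal livers of the wild type for both genes, wild-type tumor 3 was near them, and the 3 knockout-labelled libraries lay between. Between wild-type tumor and normal liver, the log2 fold change was 0.83 ± 0.42 (SE) for Atic and 0.48 ± 0.25 for Adsl. Gart, which carries 3 activities of the ring pathway in 1 protein, stayed at 30.98 to 37.1 CPM. Pfas ranged from 9.71 to 15.5 CPM, and its knockout-labelled libraries were fitted higher by 0.31 ± 0.16 (SE) with overlap.

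The branch from IMP to AMP held the largest fitted log2 fold change between genotype labels among the 33 genes, that of Adssl1. Adssl1, the adenylosuccinate synthase known from muscle, gave 20.2, 4.67 and 18.9 CPM in the wild-type tumors, 18.1 and 21.1 in the wild-type normal livers, 46.9 and 36.5 in the knockout-labelled tumors and 47.9 in the knockout-labelled normal liver. Adss, the form of most other tissues, gave 44.9, 82.7 and 37.1 CPM in the wild-type tumors, 37.2 and 37.9 in the wild-type normal livers, 30.04 and 32.7 in the knockout-labelled tumors and 32.5 in the knockout-labelled normal liver. The libraries labelled knockout were above all wild-type libraries for Adssl1 and below all of them for Adss, and wild-type tumor 2 was at the far end of both genes, lowest for Adssl1 and highest for Adss. Means were 43.7 ± 6.29 CPM (SD, n = 3) against 16.6 ± 6.75 (SD, n = 5) for Adssl1, a log2 fold change of 1.44 ± 0.41 (SE; unadjusted p = 0.00965, adjusted p = 0.705, edgeR). They were 31.8 ± 1.497 CPM (SD, n = 3) against 47.97 ± 19.7 (SD, n = 5) for Adss, a log2 fold change of -0.59 ± 0.28 (SE; unadjusted p = 0.0722, adjusted p = 0.714, edgeR). Without wild-type tumor 2 these were 1.16 and -0.32.

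In FPKM, Adssl1 made up 69.0%, 61.4% and 67.7% of the 2 forms in knockout-labelled tumors 2 and 3 and normal liver 3. Its share was 39.0%, 7.45% and 42.1% for the wild-type tumors and 40.9% and 44.2% for the wild-type normal livers. Adssl1 was thus the larger part in each library labelled knockout and the smaller part in each wild-type library. All 6 skeletal muscle markers were fitted higher in the libraries labelled knockout, and their sum was 1395 CPM in knockout-labelled tumor 2, 487 CPM in the knockout-labelled normal liver, 2.32 CPM in knockout-labelled tumor 3 and between 1.41 and 69.7 CPM in the wild-type libraries. Knockout-labelled tumor 3, with the 6 markers at a summed 2.32 CPM, had Adssl1 at 36.5 CPM. The part of muscle in the Adssl1 levels was not tested. Between genotype labels, the log2 fold change of Adssl1 ranged from 1.16 to 1.61 when each library was left out in turn.

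**Figure D4:**
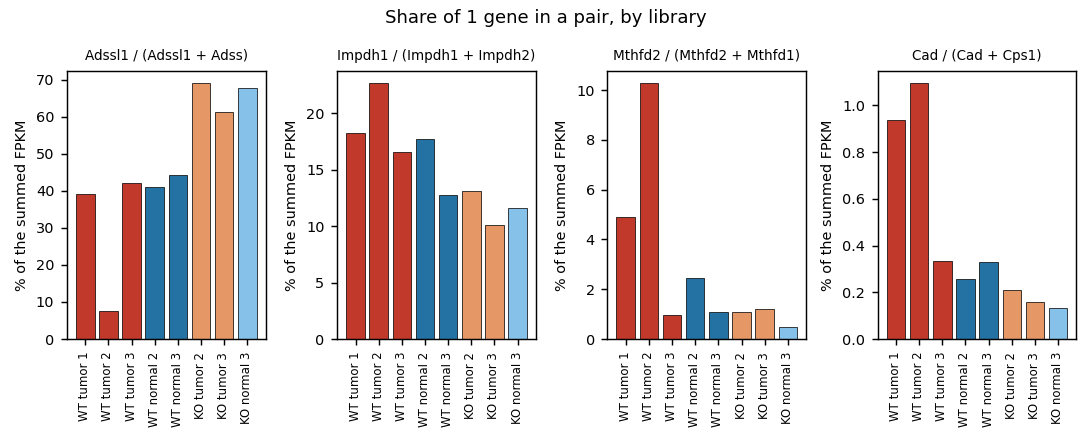
Share of the first gene in the summed FPKM of a gene pair, in percent, for each library; bars are single libraries, coloured by group, and each panel has its own scale from 0. Adssl1 is above 61% in the libraries labelled knockout and below 45% in the wild-type libraries, and Cad is at its lowest share beside Cps1 in the libraries labelled knockout.

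In the branch to GMP, Impdh1 was lower in the libraries labelled knockout and Impdh2 was nearly level. IMP dehydrogenase opens this branch, with Impdh2 known as the form induced in dividing cells. Impdh1 gave 10.6, 16.3 and 10.1 CPM in the wild-type tumors, 11.3 and 7.96 in the wild-type normal livers, 6.58 and 5.36 in the knockout-labelled tumors and 6.53 in the knockout-labelled normal liver. All libraries labelled knockout lay below all wild-type libraries, at 6.16 ± 0.688 CPM (SD, n = 3) against 11.2 ± 3.08 (SD, n = 5). The log2 fold change was -0.87 ± 0.25 (SE; unadjusted p = 0.00896, adjusted p = 0.705, edgeR) over both tissues and -1.05 ± 0.32 (unadjusted p = 0.0145, adjusted p = 0.888, edgeR) between the tumors. It ranged from -1.06 to -0.71 over both tissues when each library was left out in turn. Impdh2, the more abundant form in FPKM, stayed at 30.04 to 38.5 CPM with a log2 fold change of -0.15 ± 0.11 (SE). Impdh1 made up between 12.8% and 22.6% of the FPKM of the 2 forms in the wild-type libraries and between 10.1% and 13.1% in the libraries labelled knockout, with overlap. Gmps, the GMP synthetase, ranged from 33.1 to 42.97 CPM and was fitted higher by 0.16 ± 0.12 (SE) with overlap.

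The one-carbon genes had 2 patterns, with Mthfd1 and Shmt2 lowest in wild-type tumor 2 and Mthfd2 and Mthfd1l high there. Mthfd1, the cytosolic enzyme that interconverts the folate forms used by the purine ring and by thymidylate, gave 156, 99.3 and 168 CPM in the wild-type tumors, 156 and 187 in the wild-type normal livers, 259.9 and 249.6 in the knockout-labelled tumors and 277 in the knockout-labelled normal liver. All libraries labelled knockout lay above all wild-type libraries, at 262 ± 13.7 CPM (SD, n = 3) against 153 ± 32.8 (SD, n = 5), and wild-type tumor 2 was the lowest. The log2 fold change was 0.80 ± 0.20 (SE; unadjusted p = 0.00534, adjusted p = 0.705, edgeR), the smallest unadjusted p among the 33 genes in this comparison. It ranged from 0.66 to 0.88 when each library was left out in turn. Shmt2, which makes mitochondrial one-carbon units from serine, gave 204, 140.5 and 223 CPM in the wild-type tumors, 256 and 226 in the wild-type normal livers, 267 and 256 in the knockout-labelled tumors and 266 in the knockout-labelled normal liver. The wild-type tumors lay below the wild-type normal livers and the knockout-labelled libraries, by a log2 fold change of -0.35 ± 0.27 (SE) against the normal livers.

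Mthfd2 and Mthfd1l, which carry those units on to formate within mitochondria, had the reverse pattern in wild-type tumors 1 and 2. Mthfd2, known from embryonic and tumor tissue, gave 5.94, 8.398 and 1.21 CPM in the wild-type tumors, 2.91 and 1.52 in the wild-type normal livers, 2.14 and 2.25 in the knockout-labelled tumors and 0.986 in the knockout-labelled normal liver. Mthfd1l gave 10.7, 9.73 and 2.29 CPM in the wild-type tumors, 2.62 and 2.11 in the wild-type normal livers, 2.14 and 6.64 in the knockout-labelled tumors and 3.82 in the knockout-labelled normal liver. Wild-type tumors 1 and 2 were highest for both genes, wild-type tumor 3 was at or below the level of the normal livers, and knockout-labelled tumor 3 came next for Mthfd1l. The log2 fold change between wild-type tumor and normal liver was 1.68 ± 0.79 (SE) for Mthfd1l and 1.23 ± 0.80 for Mthfd2, and without wild-type tumors 1 and 2 -0.02 and -0.85. In FPKM, Mthfd2 made up 4.90% and 10.3% of the sum of Mthfd2 and Mthfd1 in wild-type tumors 1 and 2, and between 0.479% and 2.46% in the other 6 libraries.

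**Figure D5:**
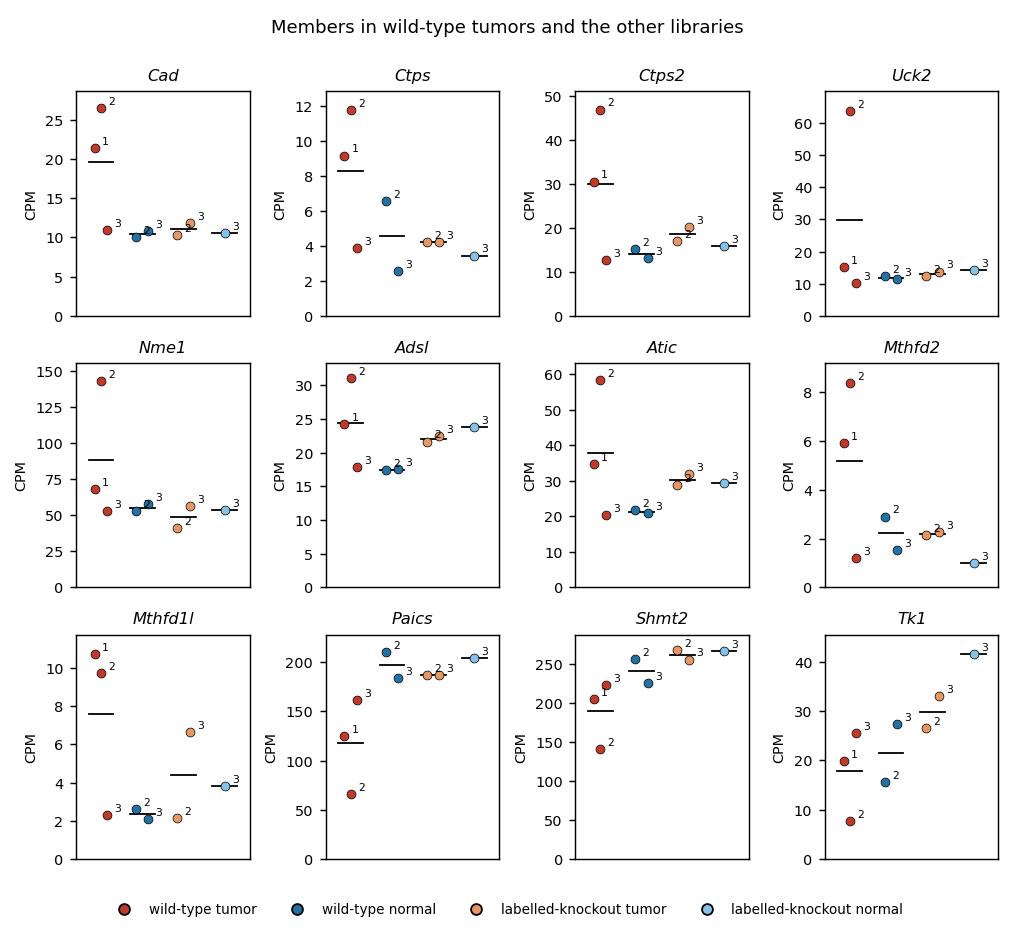
CPM of 12 members in each library (points, numbered by library; the bar is the group mean), by genotype label and tissue. Wild-type tumors 1 and 2 are highest for Cad, Ctps, Ctps2, Adsl, Atic, Mthfd2 and Mthfd1l, wild-type tumor 2 alone for Uck2 and Nme1, and wild-type tumor 2 is lowest for Paics, Shmt2 and Tk1.

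Over all 33 genes, wild-type tumors against wild-type normal livers split into 20 fitted higher and 13 lower, with a median log2 fold change of 0.17 against 0.00 over all genes. With library totals alone the split was 16 higher and 17 lower, and the median -0.02 against -0.15 over all genes. The tumors lay wholly above the normal livers for 5 members, Cad, Tyms, Rrm1, Dctd and Adsl (6.5% of all genes did), and wholly below for 2, Paics and Shmt2 (8.81% did). With library totals alone the tally turned to 3 members above, Tyms, Rrm1 and Dctd (4.04% of all genes), and 5 below, Dhodh, Cmpk1, Paics, Adssl1 and Mthfd1 (10.8%). Without wild-type tumors 1 and 2, with wild-type tumor 3 as the only wild-type tumor, the median was -0.05. These 2 tumors also had the highest proliferation marker sums, and all 16 markers were fitted higher in wild-type tumor than in wild-type normal liver. Myc gave 13.3, 34.8 and 7.37 CPM in the wild-type tumors, 9.08 and 4.27 in the wild-type normal livers, 10.03 and 10.9 in the knockout-labelled tumors and 8.62 in the knockout-labelled normal liver. Atf4 gave 169.5, 386 and 129 CPM in the wild-type tumors, 153 and 133 in the wild-type normal livers, 131 and 109.8 in the knockout-labelled tumors and 104 in the knockout-labelled normal liver. Wild-type tumor 2 was the highest library for both regulators, and their part in the levels of the members was not tested. For the difference of the tumor effects between genotypes, the median over members was -0.22, with 11 fitted higher and 22 lower (15 and 18 with library totals alone), and the knockout-labelled effect rests on 1 normal liver.

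Enzymes around the members were read from lists of the same pathways. Of 23 other salvage and kinase genes, 10 were fitted higher and 13 lower between labelled knockout and wild type, with a median log2 fold change of -0.03, and 0 passed the adjusted threshold in edgeR. At an unadjusted p of 0.05, 1 passed in each direction, Ak1 and Guk1, which is 8.70% of the list where 6.85% of all genes passed. Ak1, an adenylate kinase of muscle, followed the muscle markers at 21.8 and 9.12 CPM in the muscle-rich libraries and 0.731 CPM in knockout-labelled tumor 3. Guk1, the guanylate kinase downstream of the GMP branch, gave 30.4, 38.1 and 26.7 CPM in the wild-type tumors, 25.8 and 27.4 in the wild-type normal livers, 22.4 and 22.3 in the knockout-labelled tumors and 23.1 in the knockout-labelled normal liver. It was lower in every library labelled knockout, by a log2 fold change of -0.40 ± 0.15 (SE; unadjusted p = 0.0306, adjusted p = 0.705, edgeR). Cda, the cytidine deaminase, and Ak3, a mitochondrial GTP:AMP kinase, had log2 fold changes of -0.40 ± 0.18 and 0.43 ± 0.19 (SE).

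Among 11 other folate and serine genes, 5 were fitted higher and 6 lower between genotype labels, with a median of -0.32 and 0 past the adjusted threshold in edgeR. At an unadjusted p of 0.05, 2 passed in each direction, together 36.4% of the list where 6.85% of all genes passed. Between the tumors of the labels 3 passed (27.3%, against 2.92% of all genes). Between wild-type tumor and normal liver 3 passed (27.3%, against 2.32%). Aldh1l1, which oxidizes cytosolic formyl-folate to carbon dioxide, gave 601, 288 and 728 CPM in the wild-type tumors, 758 and 769 in the wild-type normal livers, 1288 and 1429.9 in the knockout-labelled tumors and 1461 in the knockout-labelled normal liver. The libraries labelled knockout lay above all wild-type libraries, by a log2 fold change of 1.195 ± 0.31 (SE; unadjusted p = 0.00596, adjusted p = 0.705, edgeR; adjusted p = 0.0489, DESeq2), beside Mthfd1 of the same compartment. Its mitochondrial counterpart Aldh1l2 gave 14.2, 19.3 and 0.785 CPM in the wild-type tumors, 1.21 and 1.23 in the wild-type normal livers, 1.32 and 0.609 in the knockout-labelled tumors and 0.370 in the knockout-labelled normal liver. Phgdh and Psat1, which make serine, the donor of one-carbon units, were likewise high in wild-type tumors 1 and 2: Phgdh gave 33.3 and 42.99 CPM there and at most 4.11 CPM elsewhere, and Psat1 60.01 and 176 CPM there and at most 7.496 CPM elsewhere. Between wild-type tumor and normal liver, DESeq2 called Psat1, with an adjusted p of 0.0271. Mthfd2, Mthfd1l, Aldh1l2, Phgdh and Psat1 thus shared these 2 libraries as their highest.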

How the data were processed

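Liver RNA was sequenced in 8 libraries from stranded TruSeq mRNA preparations, with an RNA integrity number of at least 7, per the labels' protocols. The authors deposited raw counts per gene for 21878 genes, whose counting method is not given in the sources used here. Per the submitters' processing notes, Bowtie 0.12.2 and the builds mm8 and mm9 were used, so no positions of the measured genes are given. The FPKM values were made by the authors by a formula not stated. Among 12000 genes with at least 10 counts in each library, their ratio to CPM from library totals alone was constant within 5% for 100.0%. The FPKM thus carry no TMM factors, unlike the CPM given above. The authors' deposited tables of 1 library against 1 library give log2 values, p-values and adjusted p-values for listed genes only, from a tool not stated. 1 further such table, whose header sets libraries other than its label says, was not used, nor were 16 further columns of values per library, of which 2 match no sample.

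Differences in the counts were fitted in R 4.3.3 with edgeR 4.0.16 (robust quasi-likelihood fit, TMM factors, expression filter at a minimum count of 10, Benjamini-Hochberg adjustment over 14726 genes, threshold 0.05). Fits were tried on simulated data. The single knockout-labelled normal liver was taken to vary like the other groups. Over both tissues the model was genotype plus tissue, and otherwise 1 mean per group. Libraries were called not overlapping where each library of 1 side lay above each of the other. Standard errors follow from the fold change and its F statistic, and intervals are at 95%. Depth limits low genes such as Dctd. The alternatives were DESeq2 1.42.0, RLE factors, library totals alone, no filter, limma 3.58.1 on log2(FPKM + 1) or log2(FPKM + 0.1), a replicate block, and leaving out libraries. The members and lists were chosen with earlier results of these data known. The genes named were all members, Nfib, Cps1, Myc, Atf4, marker genes beside a result and, from each pathway list, those past the threshold in a comparison or else among the 4 with the smallest unadjusted p in it, of which not all are given. Ampd1 was named after its values were seen. Some genes that this rule names are not reported here.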

Additional observations from a re-analysis of the deposited data

Results flagged for a closer look

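Of 66 tests of 1 library against the others, over the 33 members among the 5 wild-type libraries and among the 5 tumors, 9 found a library far from the rest, where chance gives about 1 in 20. Each time the library was wild-type tumor 2, so the 9 share 1 library. The share of all genes found by this rule is not given here, so the 9 do not set the members apart from other genes. It was far above the other wild-type libraries for Nme1 (142.99 CPM), Nme2 (359.3 CPM), Uck2 (63.9 CPM) and Adss (82.7 CPM), and far below them for Adssl1 (4.67 CPM). Among the 5 tumors of both genotype labels it was again far above the others for Nme1 (142.99 CPM), Nme2 (359.3 CPM), Uck2 (63.9 CPM) and Adss (82.7 CPM). This library also had the highest Afp and the lowest Nfib of the 8. Its summed macrophage (70.5 CPM), endothelial (78.1 CPM), biliary (14.4 CPM) and lymphocyte (5.56 CPM) markers were the lowest of the 8 as well, and its summed hepatocyte markers the highest. The part of any of these in the levels was not tested.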

How the results depend on the processing

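No member passed the adjusted threshold under any alternative. Of 1470 alternative values of members whose log2 fold change was larger than its standard error, 21 turned their sign, each when wild-type tumor 2, or wild-type tumors 1 and 2, were left out, the latter a choice made after seeing the data; the cause was not tested. Of 894 where it was smaller, and no direction is given, 131 turned. Uck2 ranged from -1.60 to 0.0147 between the tumors and from -1.20 to 0.12 between genotype labels when each library was left out. Without wild-type tumors 1 and 2, the log2 fold changes between the tumors were 0.10 for Ctps, 0.53 for Ctps2, 0.91 for Mthfd1l, 0.83 for Mthfd2 and 0.32 for Uck2. Those between wild-type tumor and normal liver were -0.0393 for Atic, -0.22 for Ctps, -0.14 for Ctps2, -0.0208 for Mthfd1l, -0.85 for Mthfd2, -0.0441 for Nme1 and -0.19 for Uck2. Between genotype labels Cad was 0.0142 and Uck2 0.30, and between tumor and normal over both genotypes Adsl was -0.0368, Adss -0.0331, Atic -0.0042, Nme1 -0.11 and Uck2 -0.17. The median over members was then 0.19 between the tumors, -0.047 between wild-type tumor and normal liver, 0.02 for the difference of tumor effects, 0.18 between genotype labels and -0.0101 between tumor and normal. Leaving out single libraries put the median between the tumors at -0.25 to 0.0433, and genes called between genotype labels at 0 to 2. DESeq2 called 4 genes between the tumors, 13 between wild-type tumor and normal liver, 45 between genotype labels and 5 between tumor and normal, none a member. With library totals alone, which shift the median of all genes by -0.15 between wild-type tumor and normal liver and by 0.23 for the difference of tumor effects, the member medians were -0.0217 and -0.015. limma on FPKM put the median of that difference at -0.0177 (pseudocount 1, with or without the filter; 1 gene called without it) and 0.0092 (pseudocount 0.1), against 0.14 and 0.21 over all genes. With the replicate number as a block no gene was called, and member medians were 0.10 between genotype labels, -0.21 between the tumors, 0.11 between wild-type tumor and normal liver, -0.18 for the difference and 0.08 for tumor against normal. Same-numbered libraries correlated in their deviations from the group means at 0.16 and 0.20 within the wild type. Between tumors of the 2 labels the values were -0.11 and -0.07. In a group of 2 libraries the deviations mirror each other, so these values cannot show or exclude pairs. The numbers were not taken as pairs because the labels do not give them as such. Groups of 1 to 3 libraries limit every comparison, and counts of 4 to 12 limit Dctd.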

Other observations

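Genes of nucleotide breakdown, which undo what the members build, were read in the same fits. Of 21 such genes, 12 were fitted higher and 9 lower between labelled knockout and wild type, with a median log2 fold change of 0.36 against -0.02 over all genes, and 0 passed an adjusted p of 0.05 in edgeR. At an unadjusted p of 0.05, 3 were fitted higher, Gda, Upp2 and Ampd1, and 2 lower, Upp1 and Nt5c2, together 23.8% of the list where 6.85% of all genes passed. Libraries did not overlap for 4 of the 21 on the higher side (3.47% of all genes) and for 2 on the lower side (2.76%). Gda, the guanine deaminase, gave 19.4, 16.6 and 18.5 CPM in the wild-type tumors, 15.8 and 21.01 in the wild-type normal livers, 23.1 and 30.8 in the knockout-labelled tumors and 31.4 in the knockout-labelled normal liver, and the libraries labelled knockout lay above all wild-type libraries (log2 fold change 0.64 ± 0.15 SE, unadjusted p = 0.0035, adjusted p = 0.705, edgeR).

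The 2 uridine phosphorylases, which split uridine to uracil, lay on opposite sides between the genotype labels. Upp2, the abundant liver form, gave 385, 45.9 and 424 CPM in the wild-type tumors, 353 and 371 in the wild-type normal livers, 479.8 and 1226 in the knockout-labelled tumors and 1432 in the knockout-labelled normal liver. Upp1 gave 2.88, 5.56 and 4.35 CPM in the wild-type tumors, 5.81 and 3.51 in the wild-type normal livers, 2.58 and 2.19 in the knockout-labelled tumors and 2.22 in the knockout-labelled normal liver. The libraries labelled knockout lay above all wild-type libraries for Upp2 and below all of them for Upp1, with log2 fold changes of 1.73 ± 0.65 and -0.92 ± 0.32 (SE; adjusted p = 0.705 for both, edgeR). Nt5c2, a cytosolic nucleotidase, gave 26.04, 29.03 and 26.5 CPM in the wild-type tumors, 21.1 and 24.6 in the wild-type normal livers, 20.5 and 17.9 in the knockout-labelled tumors and 20.8 in the knockout-labelled normal liver, also with no overlap. Ampd1, the AMP deaminase of muscle, was at 4.17 and 1.42 CPM in the muscle-rich libraries and at 0 in knockout-labelled tumor 3.

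Uox, the urate oxidase that ends purine breakdown in mouse liver, gave 1107, 684 and 1431 CPM in the wild-type tumors, 2316 and 1666 in the wild-type normal livers, 1667 and 2061 in the knockout-labelled tumors and 2081 in the knockout-labelled normal liver. The wild-type tumors lay below the wild-type normal livers, by a log2 fold change of -0.89 ± 0.40 (SE; unadjusted p = 0.0665, adjusted p = 0.845, edgeR).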
